A study of Homo sapiens with 6 samples.

Results

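ETS proteins are transcription factors that share a winged-helix DNA-binding domain, the ETS domain, and bind DNA around a GGAA core. Many of them are end points of the RAS to ERK kinase cascade: ERK phosphorylates ETS1, ETS2 and the ternary complex factors, and transcription of the PEA3-group genes ETV1, ETV4 and ETV5 rises with ERK activity. Papillary thyroid carcinoma is driven by that cascade, and ETS factors have been linked in it to invasion, to protease genes and to the telomerase promoter.

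The genes described are ELF1, ELF3, ELF4, ETS1, ETS2, ETV1, ETV4, ETV5, ELK3 and GABPA, 10 named members of the 28-gene human ETS family, taken by symbol from a count table of 21173 genes. All 10 were found and all 10 passed the filter on low counts, which 14431 genes passed. RNA was sequenced from TPC1, a human papillary thyroid cancer cell line that carries a RET fusion, in 3 libraries of vector cells (genotype label WT) and 3 libraries of cells overexpressing TFCP2L1 (label TFCP2L1 OE). TFCP2L1 is a transcription factor of the CP2 family, studied in pluripotent stem cells and in the kidney. The labels give neither the promoter of the construct, nor the time after its delivery, nor whether a line was 1 clone, nor whether each replicate was its own culture. The p-values therefore cover the spread among these 6 libraries alone, and this spread may be technical.

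Library totals ran from 37928516 to 38987434 reads. The overexpressed gene followed the labels, with TFCP2L1 at 0, 0 and 1 read in vector replicates 1 to 3 and at 12333 to 13885 reads where it was overexpressed. Reads of the 13 mitochondrially encoded genes took 5.13% to 6.72% of the vector libraries and 5.19% to 7.59% of the TFCP2L1 libraries, vector replicate 2 and TFCP2L1 replicate 3 being highest in their groups. Of the thyroid markers, the lineage factor gene PAX8 stood at 544 ± 24.4 CPM (SD, n = 3) in vector and 478 ± 47.4 CPM in TFCP2L1 cells, whereas the thyroglobulin gene TG was near 1.10 CPM and the iodide transporter gene SLC5A5 had 0 and 6 reads in all. NKX2-1 and TSHR were not analysed here. Summed over their lists, leukocyte markers reached at most 1.28 CPM in any library, C cell markers 0.897, endothelial markers 4.94 and fibroblast markers 10.5. By edgeR none of their tested genes was called, with 2 at an unadjusted p under 0.05 that are named here after their values were seen. The endothelial receptor gene TIE1 stood at 3.45 ± 0.707 CPM in vector and 1.99 ± 0.515 CPM in TFCP2L1 cells, without overlap (edgeR adjusted p = 0.0555), and was called lower by DESeq2 (0.0322), with no filter (0.0241) and without TFCP2L1 replicate 1 (0.0424). The fibroblast gene COL1A1 stood at 5.02 ± 0.327 and 3.69 ± 0.400 CPM (edgeR adjusted p = 0.127). Of the 4 tested thyroid markers 0 were called by edgeR and 2 had an unadjusted p under 0.05. Their log2 fold changes were negative in 3 and positive in 1. Without TFCP2L1 replicate 3, PAX8 (edgeR adjusted p = 0.0222) and another of these markers, FOXE1 (0.0202), were called lower. The part of these differences in the results that follow was not tested. The leukocyte gene PTPRC had 8 and 3 reads and the endothelial gene VWF had 6 and 2 reads in the vector and TFCP2L1 groups.

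Short stretches of promoter are shown for the members in which 1 of 3 motifs was found, since CP2 proteins, ETS proteins and NF-kB, a known inducer of ELF3, bind motifs of these kinds. The 250 bases before each RefSeq start on GRCh38.p14 were searched on both strands in 35116 promoters, of which 18 belonged to 7 members. ETS1, ETV4 and ETV5 were not among them. The motifs were an ETS site (CCGGAAG), a pair of CP2 half-sites (CCAG and CCNG with 6 bases of any kind between them) and the 10-letter NF-kB consensus. They are 3 of 6 patterns searched, and the choice was made after matches had been seen. Capitals mark the match, and each sequence runs 5′ to 3′ on the gene's strand.
ELF3, NF-kB consensus, chr1:202010489-202010518, plus strand: ctaaaggccaGGAAATCCCCtccatccaat
ELF4, CP2 pair, chrX:130110619-130110648, minus strand: cgcccggaCCAGCCTGCCCCGGcgccgagg
ELF4, CP2 pair at another start, chrX:130112028-130112057, minus strand: aggagaagCAGGCCGATGCTGGaggctgag
ETV1, CP2 pair, chr7:13989846-13989875, minus strand: ctgaggacCCAGCGCCTACCGGccgagcac
GABPA, ETS site, chr21:25734895-25734924, plus strand: cctccgctctaCTTCCGGccctggctccgc

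These matches describe letters and do not show binding. They lie before RefSeq starts. The stretches of ELF3, ETV1 and GABPA and the first of ELF4 lie inside the GENCODE v29 gene spans given below. The ELF3 match lay 88 to 79 bases before the RefSeq start, and 9.96% of all promoters held the same consensus. The CP2 pair was present in 11.6% of all promoters and the ETS site in 8.52%. The NF-kB consensus was taken up only after the ELF3 promoter had been read and seen to hold such a site, so its match in ELF3 is a description of a chosen pattern. A different 10-letter NF-kB pattern (GGGA and CC with 4 bases of any kind between them) was searched first: it was present in 22.6% of promoters and matched ELF4, ELK3, ETS2 and ETV1, but not ELF3. ETS sites of 8 and of 6 letters were also searched before the 7-letter one, and were present in 3.42% and 14.5% of promoters. The longer one matched GABPA, and the shorter one matched GABPA and ETV1. None of the 3 motifs overlapped another in the stretches shown.

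On the level per gene length, ELK3 and ETS1 led the family in both groups. The order in vector cells, by the deposited FPKM values, was ELK3 at 89.2 ± 2.69 (SD, n = 3), ETS1 at 55.2 ± 1.32, ETV5 at 24.4 ± 1.21, ELF1 at 23.2 ± 0.590, ETV4 at 16.6 ± 0.637, ELF4 at 15.6 ± 0.542, ETS2 at 6.96 ± 0.199, GABPA at 6.06 ± 0.688, ETV1 at 5.58 ± 0.230 and ELF3 at 5.10 ± 0.455. Neighbours whose 3 libraries overlapped in that order were ETV5 with ELF1, ETV4 with ELF4, ETS2 with GABPA, GABPA with ETV1 and ETV1 with ELF3. In TFCP2L1 cells the order was the same, but ELF3, at 2.18 ± 0.227 FPKM, no longer overlapped ETV1, at 6.36 ± 0.385, and ETV5 no longer overlapped ELF1. The 10 genes made up 75.8% to 77.5% of the FPKM summed over the family in the vector libraries and 73.7% to 77.6% in the TFCP2L1 libraries. ELK3 alone took 27.7% ± 0.149 and 28.0% ± 0.973 of that sum.

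**Figure D1:**
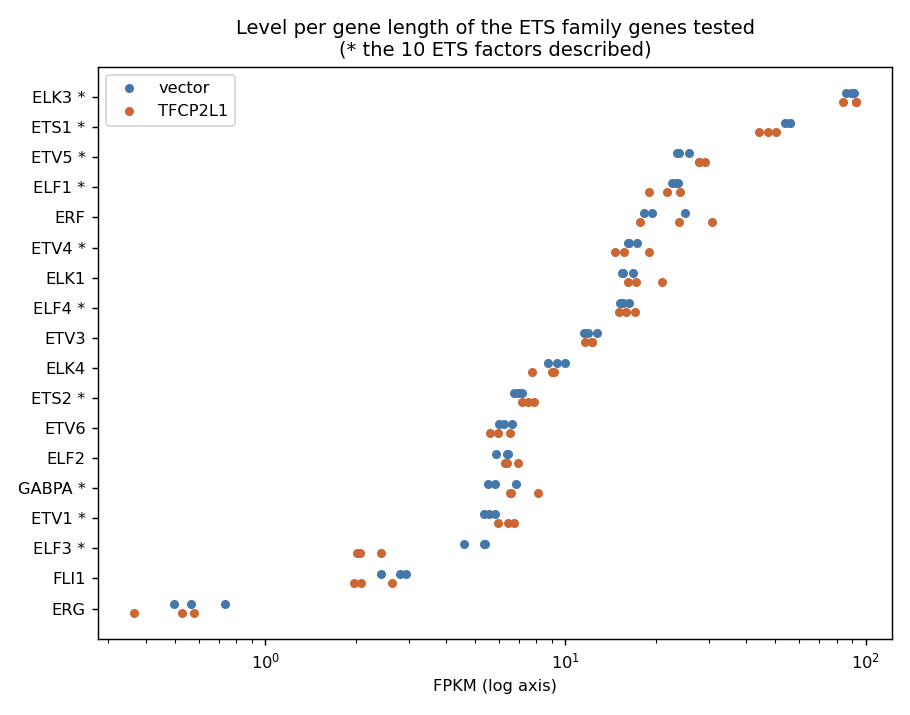
FPKM (log axis) of the 18 tested ETS family genes, 1 point a library, vector in blue and TFCP2L1 in orange, in order of the vector mean. ELK3 and ETS1 stood highest in both groups, and ELF3 was the gene whose 2 sets of points lay farthest apart.

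The comparison asked which of these transcripts differ when TFCP2L1 is overexpressed. ELF3 fell to 0.419 times its vector level, ETS1 fell to 0.841 times, and the other 8 genes were not called. By edgeR's quasi-likelihood test at an adjusted p under 0.05, 2 of 10 members were lower and 0 were higher. Among all tested genes 11.6% were called, 6.94% lower and 4.63% higher, so about 1 of any 10 genes carried a call. In bulk RNA, fewer expressing cells and less RNA per cell cannot be told apart. At an unadjusted p under 0.05 there were 3 members, the third being ETV5, which was higher. Among all tested genes 3631 of 14431 had an unadjusted p under 0.05. DESeq2 and limma-voom also gave 2 lower and 0 higher. The median log2 fold change was -0.00 over the members and 0.00 over all tested genes, and the median absolute value was 0.14 over the members and 0.16 over all tested genes.

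**Figure D2:**
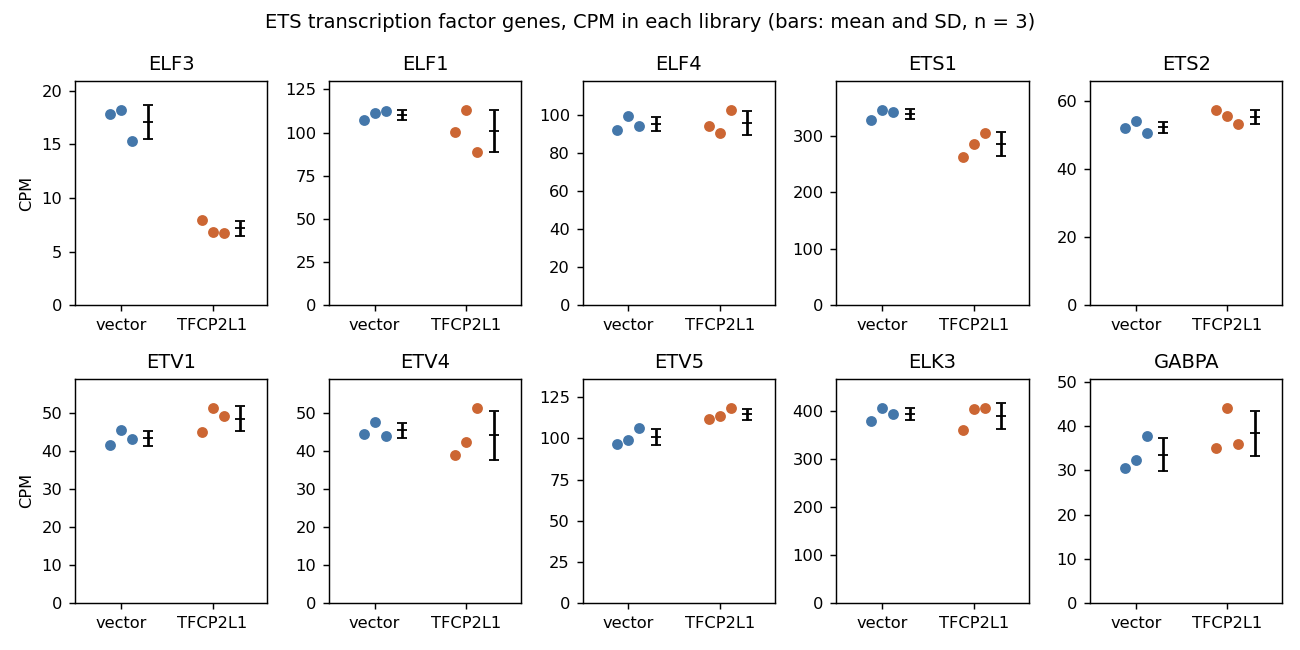
CPM of the 10 genes in each library (points), with the mean and SD of 3 libraries beside them and every axis starting at 0. The ELF3 and ETS1 points of TFCP2L1 cells lay below those of vector cells, the ETV5 points lay above, and the groups overlapped for the other 7. Among all 14431 tested genes, the groups did not overlap, in either direction, for 4331.

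ELF3 is an epithelium-specific ETS factor that is induced by inflammatory cytokines through NF-kB. It is encoded on chromosome 1 (ENSG00000163435.15; GENCODE v29 on GRCh38, 202007945 to 202017188, plus strand). Its level was 17.8, 18.2 and 15.3 CPM in vector replicates 1 to 3 and 7.94, 6.81 and 6.71 CPM in TFCP2L1 replicates 1 to 3. The groups did not overlap: the lowest vector library stood above the highest TFCP2L1 library, an order that 15.6% of tested genes shared. The means were 17.1 ± 1.58 and 7.15 ± 0.686 CPM, a log2 fold change of -1.26 ± 0.13 (SE; 95% interval -1.53 to -0.98) with an edgeR adjusted p of 6.10e-06. By size of change ELF3 ranked 371st of 14431 tested genes. It was called lower under all 17 alternatives run, with a log2 fold change between -1.34 and -0.94 and an adjusted p of at most 0.000933. The smallest change was that of limma on log2(FPKM + 1), a scale that understates changes of low genes.

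ELF3-AS1, an antisense gene that was singled out after its values were seen, shares 664 exon bases with ELF3 in GENCODE v29, 9.23% of the exon bases of ELF3. There ELF3 has 7191 exon bases and ELF3-AS1 5569, but the deposited values imply lengths of 3318 and 831. The counted gene models thus differ, and their shared bases are not known. The sources used here do not state whether strand was kept, and reads in any shared bases cannot then be assigned to 1 of the genes. ELF3-AS1 had 2.66, 1.81 and 1.87 CPM in vector and 0.922, 0.867 and 1.04 CPM in TFCP2L1 libraries. Its log2 fold change was -1.16 ± 0.31 (SE; edgeR adjusted p = 0.0228), a fall. The FPKM of ELF3 was 2.08 ± 0.419 times that of ELF3-AS1 in vector and 1.91 ± 0.278 times in TFCP2L1 libraries, ratios whose ranges overlapped.

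ELF1 and ELF4, sister factors with roles in lymphoid cells and in antiviral defence, were not called. ELF1 (chromosome 13, 40932028 to 41061440) had 107, 111 and 112 CPM in vector and 101, 113 and 89.0 CPM in TFCP2L1 libraries. TFCP2L1 replicate 3 was the lowest and replicate 2 the highest of all 6, so the groups overlapped, and the log2 fold change was -0.13 ± 0.09 (95% interval -0.31 to 0.05; edgeR adjusted p = 0.386). ELF4 (chromosome X, 130064874 to 130110716) had 92.0, 99.2 and 94.1 CPM in vector and 94.2, 90.4 and 102 CPM in TFCP2L1 libraries. Its log2 fold change was 0.01 ± 0.08, with a 95% interval from -0.15 to 0.17. The CP2 half-site pairs shown for ELF4 lie before RefSeq starts. The pair in the stretch 130110619 to 130110648 lies inside the GENCODE span given here for ELF4.

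ETS1 is the founding member of the family and a regulator of protease genes and of angiogenesis. It is encoded on chromosome 11 (ENSG00000134954.14, 128458761 to 128587558, minus strand). It had 328, 345 and 341 CPM in vector replicates 1 to 3 and 262, 286 and 305 CPM in TFCP2L1 replicates 1 to 3. All TFCP2L1 libraries were below all vector libraries, an order that 15.6% of tested genes shared. The means were 338 ± 8.90 and 284 ± 21.4 CPM, and the log2 fold change of ETS1 was -0.25 ± 0.08 (SE; 95% interval -0.41 to -0.09; edgeR adjusted p = 0.0444). ETS1 had the same sign under all 17 alternatives but was called in only 7. Of the fits that left out a library, the 1 without TFCP2L1 replicate 3 kept the call (adjusted p = 0.0109). The call was lost without vector replicate 1 (0.113), 2 (0.138) or 3 (0.166) and without TFCP2L1 replicate 1 (0.170) or 2 (0.0538).

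**Figure D3:**
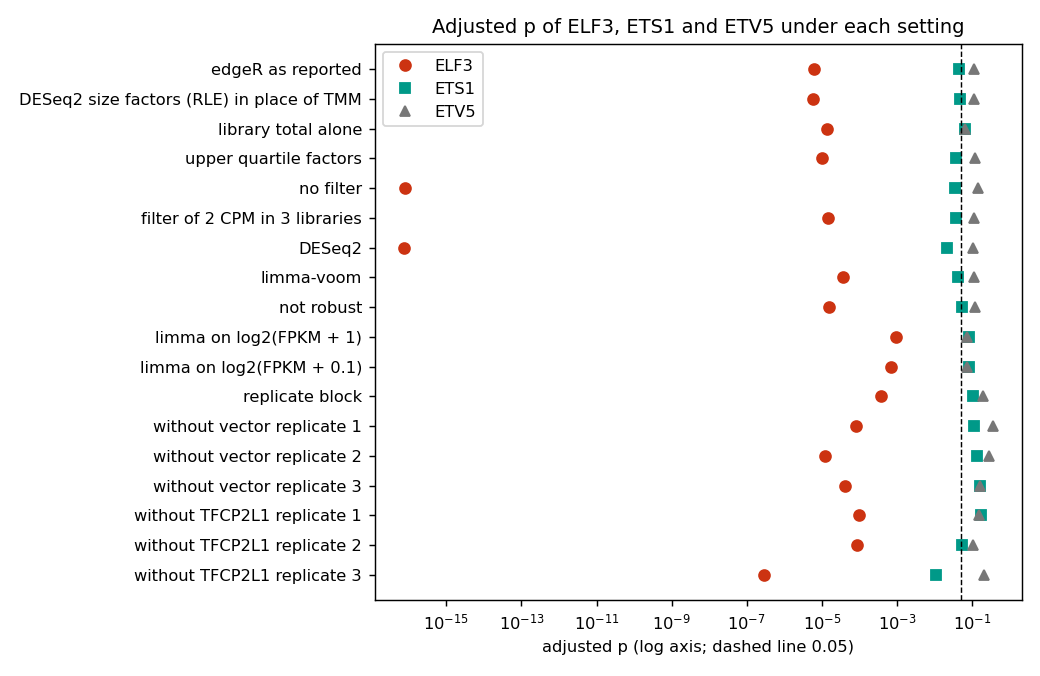
Adjusted p (log axis) of ELF3, ETS1 and ETV5 as reported and under 17 other settings, with the threshold of 0.05 dashed. ELF3 stayed left of the line throughout, ETS1 lay on both sides of it, and ETV5 stayed right of it.

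ETS2, the closest relative of ETS1, was not called. It had 52.1, 54.0 and 50.5 CPM in vector and 57.2, 55.6 and 53.2 CPM in TFCP2L1 libraries, with a log2 fold change of 0.09 ± 0.08 (95% interval -0.08 to 0.25). The lowest TFCP2L1 library fell between vector libraries. Within each library the FPKM of ETS1 was 7.71, 7.82 and 8.28 times that of ETS2 in vector and 5.61, 6.30 and 7.02 times in TFCP2L1 cells. The ranges of this ratio did not overlap, and the ratio itself was not tested. Of the FPKM summed over the family, ETS1 took 17.1% ± 0.277 in vector and 14.7% ± 0.262 in TFCP2L1 cells.

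The PEA3 group, ETV1, ETV4 and ETV5, holds the members whose transcripts are commonly read as a measure of ERK output. ETV5 (chromosome 3, 186046308 to 186110318) had 96.8, 99.3 and 106 CPM in vector and 112, 113 and 119 CPM in TFCP2L1 libraries. All TFCP2L1 libraries were above all vector libraries, an order that 14.4% of tested genes shared. The log2 fold change of ETV5 was 0.19 ± 0.07 (95% interval 0.03 to 0.34), with an unadjusted p of 0.0206 and an edgeR adjusted p of 0.114. Under the alternatives the adjusted p of ETV5 ran from 0.0658 to 0.360, so ETV5 was called in none of the 17.

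ETV1 (chromosome 7, 13891228 to 13991425) had 41.5, 45.4 and 43.0 CPM in vector and 44.9, 51.3 and 49.1 CPM in TFCP2L1 libraries, so that 1 pair of libraries crossed. Its log2 fold change of 0.16 ± 0.09 had an interval from -0.02 to 0.34 and an edgeR adjusted p of 0.259. ETV4 (chromosome 17, 43527844 to 43579620) had 44.6, 47.7 and 44.0 CPM in vector and 38.8, 42.2 and 51.3 CPM in TFCP2L1 libraries. Its 2 lowest values and its highest value were all TFCP2L1 libraries, and the interval of the log2 fold change ran from -0.26 to 0.17. The highest, TFCP2L1 replicate 3, was also the library with the largest mitochondrial share. The part of that share in the spread of ETV4 was not tested.

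ELK3, also called Net, is a ternary complex factor that binds DNA with SRF and represses until ERK phosphorylates it. It is encoded on chromosome 12 (96194382 to 96269835) and had 380, 406 and 394 CPM in vector and 359, 404 and 406 CPM in TFCP2L1 libraries. The log2 fold change was -0.01 ± 0.08, with a 95% interval that runs from 0.886 to 1.11 times the vector level. The lowest and the second highest of the 6 values were both TFCP2L1 libraries, so the groups overlapped. GABPA, the DNA-binding subunit of GABP and an activator of mitochondrial genes, had 30.5, 32.4 and 37.7 CPM in vector and 35.05, 44.1 and 35.9 CPM in TFCP2L1 libraries. It is encoded on chromosome 21 (25734570 to 25772460) and shares 413 exon bases, 7.61% of its own, with the opposite-strand gene ATP5PF. The groups overlapped, and the log2 fold change was 0.19 ± 0.11 (95% interval -0.04 to 0.43; edgeR adjusted p = 0.295).

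Of the remaining 18 genes of the family, 8 passed the filter and were tested. Of these 8, 0 were called by edgeR, by DESeq2 or by limma-voom, where edgeR called 11.6% of all tested genes. An unadjusted edgeR p under 0.05 was found for 3631 of all 14431 tested genes and for 1 of these 8. That gene was FLI1, a factor of endothelial and blood cells, which had 12.5, 14.5 and 15.1 CPM in vector and 10.5, 10.02 and 13.5 CPM in TFCP2L1 libraries. Its log2 fold change was -0.31 ± 0.14 (edgeR adjusted p = 0.166), and without TFCP2L1 replicate 3 it was called (0.0289). ERG, the other endothelial factor, was at 3.81 ± 0.805 and 3.05 ± 0.666 CPM. The ternary complex factors ELK1 and ELK4 stood at 47.0 ± 2.42 and 112 ± 7.24 CPM in vector and 52.3 ± 7.76 and 101 ± 10.2 CPM in TFCP2L1 cells. The repressors ERF, ETV3 and ETV6 had log2 fold changes of 0.18 ± 0.22, -0.03 ± 0.08 and -0.09 ± 0.08, and ELF2 one of 0.04 ± 0.09.

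Genes of the family that did not pass the filter were nearly silent. EHF, the epithelial relative of ELF3, had 9 reads in the vector and 10 in the TFCP2L1 group, and the interferon-inducible ETV7 had 31 and 35. ETV2 had 13 and 23 reads, and the blood cell factors SPI1, SPIB and SPIC had 30 and 18, 3 and 14, and 0 and 1. SPDEF, a factor of secretory epithelium, had 3 and 1. ELF5, ETV3L and FEV were not found by symbol in the count table and so were not analysed here.

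**Figure D4:**
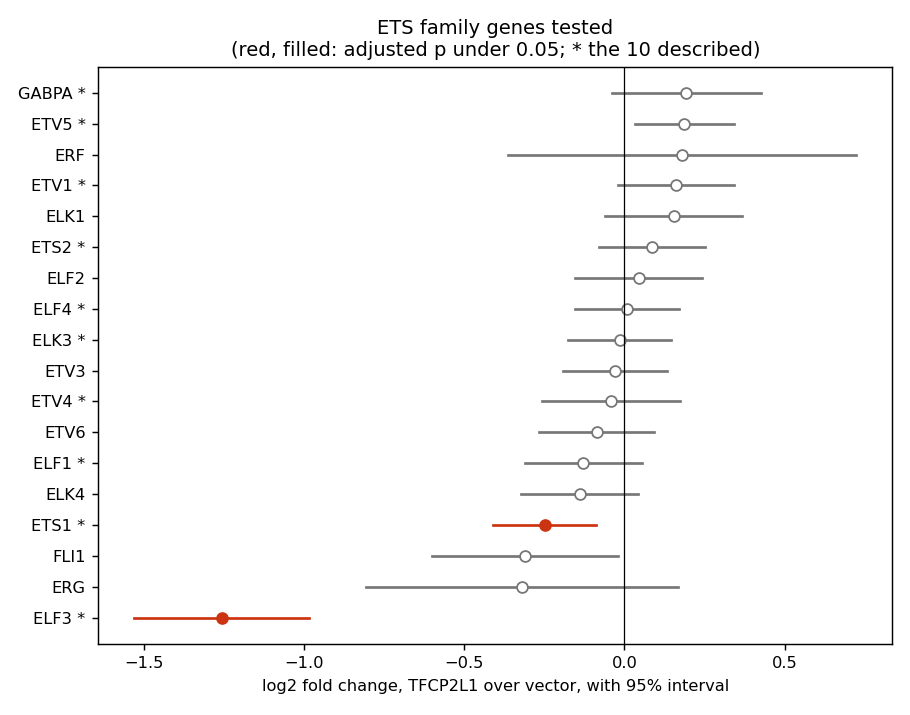
Log2 fold change of TFCP2L1 over vector cells with its 95% interval for the 18 tested ETS family genes, red where the adjusted p was under 0.05. ELF3 lay at -1.26, ETS1 at -0.25, and the other 16 genes between -0.32 and 0.19.

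Genes that act on ETS proteins were mostly not called. In the list of partners, repressors and turnover factors 1 of 14 tested genes was lower and 0 were higher, with a median log2 fold change of 0.00 (DESeq2 gave 2 lower and 0 higher; 2 genes, both lower, had an unadjusted p under 0.05). Over all tested genes 6.94% were called lower and 4.63% higher. The called gene of the list was ATXN1, which encodes a partner of the repressor CIC. ATXN1 had 25.1, 34.4 and 28.1 CPM in vector and 17.8, 19.8 and 21.0 CPM in TFCP2L1 libraries, without overlap, and fell to a log2 fold change of -0.58 ± 0.12 (edgeR adjusted p = 0.00461). The call was lost with limma on FPKM (0.0521 with a pseudocount of 1 and 0.0518 with 0.1). Its paralogue ATXN1L, at 104 ± 8.39 and 88.0 ± 2.37 CPM, missed the threshold (edgeR adjusted p = 0.0560) and was called lower under 6 alternatives, DESeq2 among them (0.0449). Of the 10 RAS, RAF, MEK and ERK genes 0 were called by edgeR, DESeq2 or limma-voom, with 1, ARAF, at an unadjusted p under 0.05. ARAF was at 39.05 ± 2.41 and 46.5 ± 4.72 CPM (edgeR adjusted p = 0.0978) and was called higher without TFCP2L1 replicate 2 (0.0487).

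Among 13 ERK output genes, taken without the ETS factors, 5 rose and 0 fell, with a median log2 fold change of 0.16. Of all tested genes, 4.63% were called higher and 6.94% lower. The output list was chosen with earlier results of these data known, so its count is no independent evidence of a direction. The groups did not overlap for 8 of the 13 output genes, 5 with TFCP2L1 cells above and 3 below. All TFCP2L1 libraries stood above all vector libraries in 14.4% of all tested genes, and below them in 15.6%. At an unadjusted p under 0.05 there were 6 output genes, the 5 called ones and DUSP6. EPHA4, an ephrin receptor gene, rose from 7.39 ± 1.12 to 11.7 ± 2.24 CPM (log2 fold change 0.67 ± 0.16). FOSL1, an AP-1 subunit gene, rose from 370 ± 40.8 to 490 ± 81.1 CPM, and SPRY2, a feedback inhibitor gene of the cascade, rose from 35.5 ± 1.46 to 46.1 ± 3.41 CPM. SPRED2, another feedback inhibitor gene, had an edgeR adjusted p of 0.0461. Of 17 alternatives, SPRED2 lost its call in 11, limma-voom among them (0.0576), FOSL1 in 5 and EPHA4 and SPRY4 in 4 each. DUSP6, which encodes an ERK phosphatase, stood at 102 ± 4.82 CPM in vector and 88.0 ± 7.04 CPM in TFCP2L1 cells (edgeR adjusted p = 0.0932), with CCND1 at 532 ± 6.72 and 482 ± 18.5 CPM (0.228) and PHLDA1 at 608 ± 6.41 and 567 ± 16.1 CPM (0.418). These 3 were the genes with every TFCP2L1 library below every vector library, and are named after their values were seen. The count of 5 fell to 1 without vector replicate 1, to 3 without vector replicate 3 or TFCP2L1 replicate 2, and to 2 with limma on FPKM or with the replicate number as a block. Without TFCP2L1 replicate 3 it was 4 higher and 2 lower, the lower ones being DUSP6 (0.0253) and IER3 (0.0273).

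The SRF and ternary complex list, targets of ELK-type factors, had 2 of 7 genes higher and 0 lower, with a median log2 fold change of 0.39. The shares over all tested genes were 4.63% higher and 6.94% lower. This list too was chosen with earlier results known, and its count is no independent evidence of a direction. EGR1, an immediate early factor gene, had 4.86, 3.24 and 4.40 CPM in vector and 13.04, 14.8 and 17.8 CPM in TFCP2L1 libraries. It rose with a log2 fold change of 1.87 ± 0.17 (edgeR adjusted p = 1.57e-06). IER2 rose from 61.0 ± 2.21 to 80.1 ± 11.5 CPM (edgeR adjusted p = 0.0133). That p was 0.0846 without vector replicate 3 and 0.0603 with the replicate block. FOSB, at 22.0 ± 2.92 and 28.2 ± 3.89 CPM, missed the threshold (0.0703). The number of higher genes was 4 with no filter on low counts, 3 with DESeq2, 3 without vector replicate 2 or TFCP2L1 replicate 2, and 1 without vector replicate 3 or with the block.

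Of 11 tested invasion genes with known ETS sites 5 fell and 0 rose, with a median log2 fold change of -0.30. Among all tested genes 6.94% were called lower and 4.63% higher. The invasion list was also chosen with earlier results of these data known, so its count is no independent evidence of a direction. MMP2 had 110, 103 and 113 CPM in vector and 76.9, 73.9 and 80.5 CPM in TFCP2L1 libraries, a log2 fold change of -0.50 ± 0.08 (edgeR adjusted p = 0.000329). MMP2 and MMP9 encode gelatinases, PLAU the urokinase and SPP1 osteopontin. MMP9 fell from 40.6 ± 2.17 to 30.3 ± 3.84 CPM, SPP1 from 521 ± 51.1 to 384 ± 34.9 CPM and PLAU from 2719 ± 173 to 2045 ± 176 CPM. The count was 3 without vector replicate 2, where the calls of MMP9 (0.0506) and VEGFA (0.0564) were lost, and with the replicate block, where they were lost too (0.0573 and 0.0622). It was 4 with limma on FPKM, where PLAU lost its call (0.0729 with a pseudocount of 1 and 0.0772 with 0.1). VEGFA also lost its call without vector replicate 1 (0.0541) or 3 (0.0613). TIMP1, a protease inhibitor gene at 571 ± 109.5 and 369 ± 83.6 CPM, was not called (0.0978) but was called lower under 5 alternatives, and PLAUR, the urokinase receptor gene, was above vector in all 3 TFCP2L1 libraries (154 ± 7.14 and 175 ± 1.23 CPM, 0.104).

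Of 17 genes known as GABP targets 0 were called by edgeR, DESeq2 or limma-voom, where edgeR called 11.6% of all tested genes. The median log2 fold change of the list was 0.05. Among all 14431 tested genes 3631 had an unadjusted edgeR p under 0.05, and among these 17 there were 2. Those 2 were the F-box gene SKP2, at 37.7 ± 4.29 and 46.2 ± 5.11 CPM (edgeR adjusted p = 0.0800), and the mitochondrial transcription factor gene TFAM, at 78.0 ± 2.55 and 91.1 ± 9.77 CPM (0.105). SKP2 was called higher in 3 of 17 alternatives and TFAM in 1. Of the genes known as ELF3 targets 4 of 8 could be tested. Of these 4, 3 fell and 0 rose, where 6.94% and 4.63% of all tested genes were called lower and higher. The list was drawn up with falls of CCL20 and of ELF3 already known, so its count is no independent evidence of a direction. The lipocalin gene LCN2 fell from 1.97 ± 0.645 to 0.267 ± 0.171 CPM, the chemokine gene CCL20 from 8.96 ± 2.46 to 1.32 ± 0.211 CPM and the cyclooxygenase gene PTGS2 from 120 ± 4.41 to 72.3 ± 6.25 CPM, with edgeR adjusted p-values of 0.000797, 6.25e-07 and 1.35e-05. TGFBR2 was at 465 ± 3.94 and 467 ± 18.7 CPM.

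**Figure D5:**
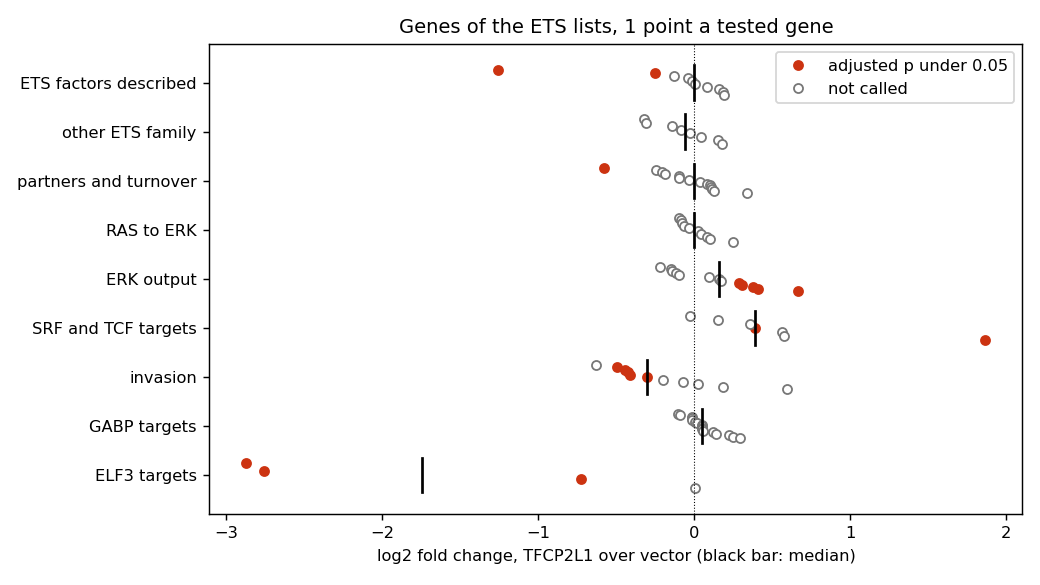
Log2 fold change of TFCP2L1 over vector cells for every tested gene of 9 lists, 1 point a gene, red where the adjusted p was under 0.05 and with the list's median as a black bar. The medians were 0.00 for the ETS factors described, 0.16 for ERK output and -0.30 for the invasion genes.

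The genes whose pattern over the 6 libraries was most like that of ELF3 were found by the root mean square difference of centred log2 CPM among 11693 genes with a mean of at least 2 CPM. They were MEIS3 (0.0923), MAN1A1 (0.0964), RNF144B (0.103), LOC105378180 (0.103) and COL7A1 (0.105), of which MEIS3 encodes a homeobox factor, MAN1A1 a Golgi mannosidase and COL7A1 the collagen of anchoring fibrils. MAN1A1 fell from 64.5 ± 0.339 to 28.4 ± 2.32 CPM and COL7A1 from 170 ± 5.16 to 69.1 ± 9.38 CPM.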

How the data were processed

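The authors deposited raw read counts per gene symbol and FPKM values for the same genes. The submitters' processing notes name fastp, HISAT2, HTSeq and GRCh38.p13, without versions; the annotation and the strand setting are not given in the sources used here. Count divided by FPKM and library total gave 1 length per gene, so the deposited FPKM values are the counts rescaled. Columns were matched to samples by group and replicate number.

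Counts were tested with edgeR 4.0.16 (R 4.3.3): filterByExpr, TMM, robust quasi-likelihood F-test, two-sided, all 6 libraries in 1 fit, Benjamini-Hochberg over 14431 genes, called at 0.05. Standard errors of log2 fold changes were derived from F. CPM is on the TMM scale. The code was tested on simulated data. Alternatives used other scalings and filters, DESeq2 1.42.0, limma 3.58.1 (voom, and FPKM with pseudocounts of 1 and 0.1), a replicate block and leaving out each library. Members and lists were chosen with earlier results of these data known. Named genes were all members, other tested family genes, and up to 4 called genes a list by size of change (the 2 of smallest p where fewer than 2 were called). SPRY4, IER3, FOSB, VEGFA, TIMP1, PLAUR and TGFBR2 fall outside this rule and were named with their values already seen. A gene that this rule names in the list of kinase cascade genes is not reported here. The 5 genes most like the called member of largest change were also named. Replicate libraries differed by more than sampling noise (chi-square divided by its degrees of freedom, 7.80 to 45.5). Positions and overlaps come from GENCODE v29.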

Additional observations from a re-analysis of the deposited data

How the results depend on the processing

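ELF3 kept its direction and its call under all 17 alternatives. The count of lower members, 2 as reported, was 1 wherever ETS1 lost its call: with the library total alone (log2 fold change of ETS1 -0.22, adjusted p = 0.0647), without the robust option (0.0531), with limma on log2(FPKM + 1) (0.0803) or log2(FPKM + 0.1) (0.0813) and with the replicate block (0.109). Leaving out 1 library gave 1 to 2 lower members and 0 higher ones. Among all tested genes, 668 were higher and 1002 lower as reported. Leaving out 1 library gave 298 to 766 higher and 621 to 1106 lower genes.

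With the replicate number as a block there were 328 higher and 649 lower genes. Same-numbered libraries deviated from their group means with correlations of 0.07, -0.16 and -0.12 over 14431 genes. Vector replicate 2 correlated best with TFCP2L1 replicate 3 (0.22), not with its own number. As deviations from means of 3 libraries, these values depend on each other. They cannot tell whether same-numbered libraries shared a culture or a day.

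Small differences of genes that were not called changed sign in 11 instances. ELK3 stood at 0.0121 with the library total alone and at 0.0107 and 0.0108 with limma on FPKM at pseudocounts of 1 and 0.1. With 1 library left out, log2 fold changes ran from -0.0442 to 0.0418 for ELK3, -0.0430 to 0.0482 for ELF4, -0.164 to 0.0435 for ETV4, -0.00391 to 0.0707 for ELF2, -0.0405 to 0.359 for ERF and -0.0610 to 0.0160 for ETV3. The causes were not tested. The 7 family genes that had reads but failed the filter were tested only where the filter was dropped or a library left out. With no filter, 0 of the 15 family genes with reads outside the 10 described were called.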
